A study of Mus musculus with 24 samples.

Results

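The 9 genes Mat1a, Mat2a, Gnmt, Ahcy, Bhmt, Cbs, Cth, Shmt1 and Shmt2 encode enzymes of methionine and one-carbon metabolism. They were chosen by name: every gene probe of the array that carries one of these 9 symbols was taken, which gave 15 of 56605 probes. All 15 probes passed the filter on dim signals and none was saturated on any array, and each gene is represented below by its brightest probe, as were all 21331 genes tested. Mat2a and Bhmt have 3 probes each, Shmt1 and Shmt2 have 2 each, and the other 5 genes have 1.

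The levels come from single-colour arrays of liver RNA from 24 male C57Bl/6J mice on a standard diet, 6 in each of 4 groups, with 1 array per mouse. LWT mice express PPARα in hepatocytes and LKO mice do not, as read from the title of the series; the promoter that drives the deletion and the deleted part of the gene are not given in the sources used here. Each genotype received by gavage either CL316243 (3 mg/kg), an agonist of the beta3 adrenergic receptor and called Beta3 in the labels, or its vehicle alone, which was 0.5% carboxymethyl cellulose in water. Gavage was at 10 h of Zeitgeber time and the livers were taken at 16 h, so treated and control mice shared the gavage, the vehicle and the hour of sampling. PPARα is a nuclear receptor that senses fatty acids and drives their oxidation in the liver, and the beta3 receptor is known mainly from fat cells, where its activation releases fatty acids.

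In the methionine cycle, methionine adenosyltransferases turn methionine into S-adenosylmethionine, the methyl donor of the cell. Mat1a encodes the catalytic subunit found in the adult liver and Mat2a the one found in most other tissues and in dividing hepatocytes. Gnmt, abundant in hepatocytes, spends S-adenosylmethionine by methylating glycine, and Ahcy splits the S-adenosylhomocysteine that every methyl transfer leaves. The homocysteine so formed is either methylated back to methionine, for which Bhmt uses betaine, or passed by Cbs and then Cth through cystathionine to cysteine. Shmt1 in the cytosol and Shmt2 in mitochondria convert serine and glycine into each other and so load one-carbon units onto folate.

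The stretches upstream of 5 of the members that changed are shown because these genes moved in opposite directions: Mat2a was higher after CL316243, and Gnmt, Ahcy, Shmt1 and Shmt2 were lower in at least one genotype. The sequences are RefSeq's (build GRCm38.p6), the 250 bases before the annotated start of transcription, all on the minus strand and written 5′ to 3′. RefSeq's table held such a stretch for 7 of the 9 members, and Mat1a and Cth were not among them. Capitals mark every match to AGGTCA (the core element of nuclear receptors), DR1 (AGGTCA repeated in the same direction with 1 base between, an arrangement that PPARα with RXR can bind), CACGTG (E-box), TGACG and TGACGTCA (cAMP response element, short and full form, the first contained in the second), TGATGNAA (core of the amino acid response element), TATAAA and CCAAT, searched on both strands.
Mat2a chr6:72439557-72439806: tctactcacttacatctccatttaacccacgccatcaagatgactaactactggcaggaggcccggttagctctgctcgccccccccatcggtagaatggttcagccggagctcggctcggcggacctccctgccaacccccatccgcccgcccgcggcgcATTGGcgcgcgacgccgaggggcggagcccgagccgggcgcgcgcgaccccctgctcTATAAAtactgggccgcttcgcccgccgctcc
Gnmt chr17:46729166-46729415: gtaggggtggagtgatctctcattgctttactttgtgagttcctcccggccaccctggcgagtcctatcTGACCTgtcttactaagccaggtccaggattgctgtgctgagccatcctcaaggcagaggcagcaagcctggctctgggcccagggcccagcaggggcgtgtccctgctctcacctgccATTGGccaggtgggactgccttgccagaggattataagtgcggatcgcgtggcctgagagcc
Ahcy chr2:155074498-155074747: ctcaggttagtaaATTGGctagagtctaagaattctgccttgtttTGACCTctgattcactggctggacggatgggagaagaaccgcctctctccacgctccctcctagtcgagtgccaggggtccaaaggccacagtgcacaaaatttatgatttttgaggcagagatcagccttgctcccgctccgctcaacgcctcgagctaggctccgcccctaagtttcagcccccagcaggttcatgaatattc
Shmt1 chr11:60811266-60811515: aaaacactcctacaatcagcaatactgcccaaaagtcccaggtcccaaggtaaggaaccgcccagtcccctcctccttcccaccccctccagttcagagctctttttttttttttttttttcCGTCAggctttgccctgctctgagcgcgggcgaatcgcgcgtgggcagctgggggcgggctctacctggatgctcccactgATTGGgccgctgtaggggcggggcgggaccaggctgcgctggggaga
Shmt2 chr10:127522445-127522694: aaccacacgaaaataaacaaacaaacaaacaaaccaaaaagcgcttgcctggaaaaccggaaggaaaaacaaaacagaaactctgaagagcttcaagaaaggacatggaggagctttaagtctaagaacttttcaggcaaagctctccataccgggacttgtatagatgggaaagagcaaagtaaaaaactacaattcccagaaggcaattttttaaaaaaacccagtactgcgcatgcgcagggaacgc

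In the Mat2a stretch the search found TATAAA 32 bases before the start and an inverted CCAAT, and its GC content was 67.6%. TATAAA occurs in 12.4% of the 32851 stretches of this length in the table and CCAAT in 33.8%. CCAAT was not particular to Mat2a: Gnmt, Ahcy, Bhmt and Shmt1 held 1 match each and Cbs held 2. TATAAA was matched in Mat2a alone among the 7 members. Gnmt and Ahcy each held 1 AGGTCA on the opposite strand, at 181 and 205 bases before the start, and Bhmt, whose stretch is not printed, held 3. AGGTCA occurs in 14% of all stretches. Shmt1 held 1 TGACG on the opposite strand, which 17.8% of stretches contain, and in the Shmt2 stretch, at 40.8% GC, none of the 8 motifs was matched. DR1, in 0.0335% of stretches, TGACGTCA, in 1.55%, and TGATGNAA, in 3.45%, were matched in none of the 7 members; CACGTG, in 6.02%, was matched in Cbs alone. These are matches of letters and say nothing on binding.

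The probes that report Gnmt and Ahcy, the members that fell in LKO livers without a called change in LWT livers, have the following sequences, shown because each gene rests on this 1 oligonucleotide; no part is capitalised.
Gnmt probe: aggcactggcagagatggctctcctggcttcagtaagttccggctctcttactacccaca
Ahcy probe: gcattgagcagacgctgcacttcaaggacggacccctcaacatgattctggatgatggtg

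By the annotation of the array (mm9), the Gnmt probe covers chr17:46862894-46863042 on the minus strand and starts at base 691 of its transcript. Its 60 bases span 149 bases of genome. The Ahcy probe lies at chr2:154891321-154891380 on the minus strand, from base 442 of its transcript. The longest run of bases that any of the 15 member probes shares with a probe of another gene name on the array was 15.

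Levels are given as log2 of the scanner's processed intensity minus the 75th percentile of its array, so that a level of 0 is that percentile and a difference of 1 is a doubling of signal. Levels of different genes come from different probes and are not compared. Each difference was tested with limma on all 24 arrays and 21331 genes, the p-values of a comparison were adjusted together (Benjamini-Hochberg), and a gene was called changed at an adjusted p under 0.05. In whole liver, fewer cells of a type and less RNA per cell cannot be told apart. The plot of levels by mouse shows the 9 members in the 4 groups.

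**Figure D1:**
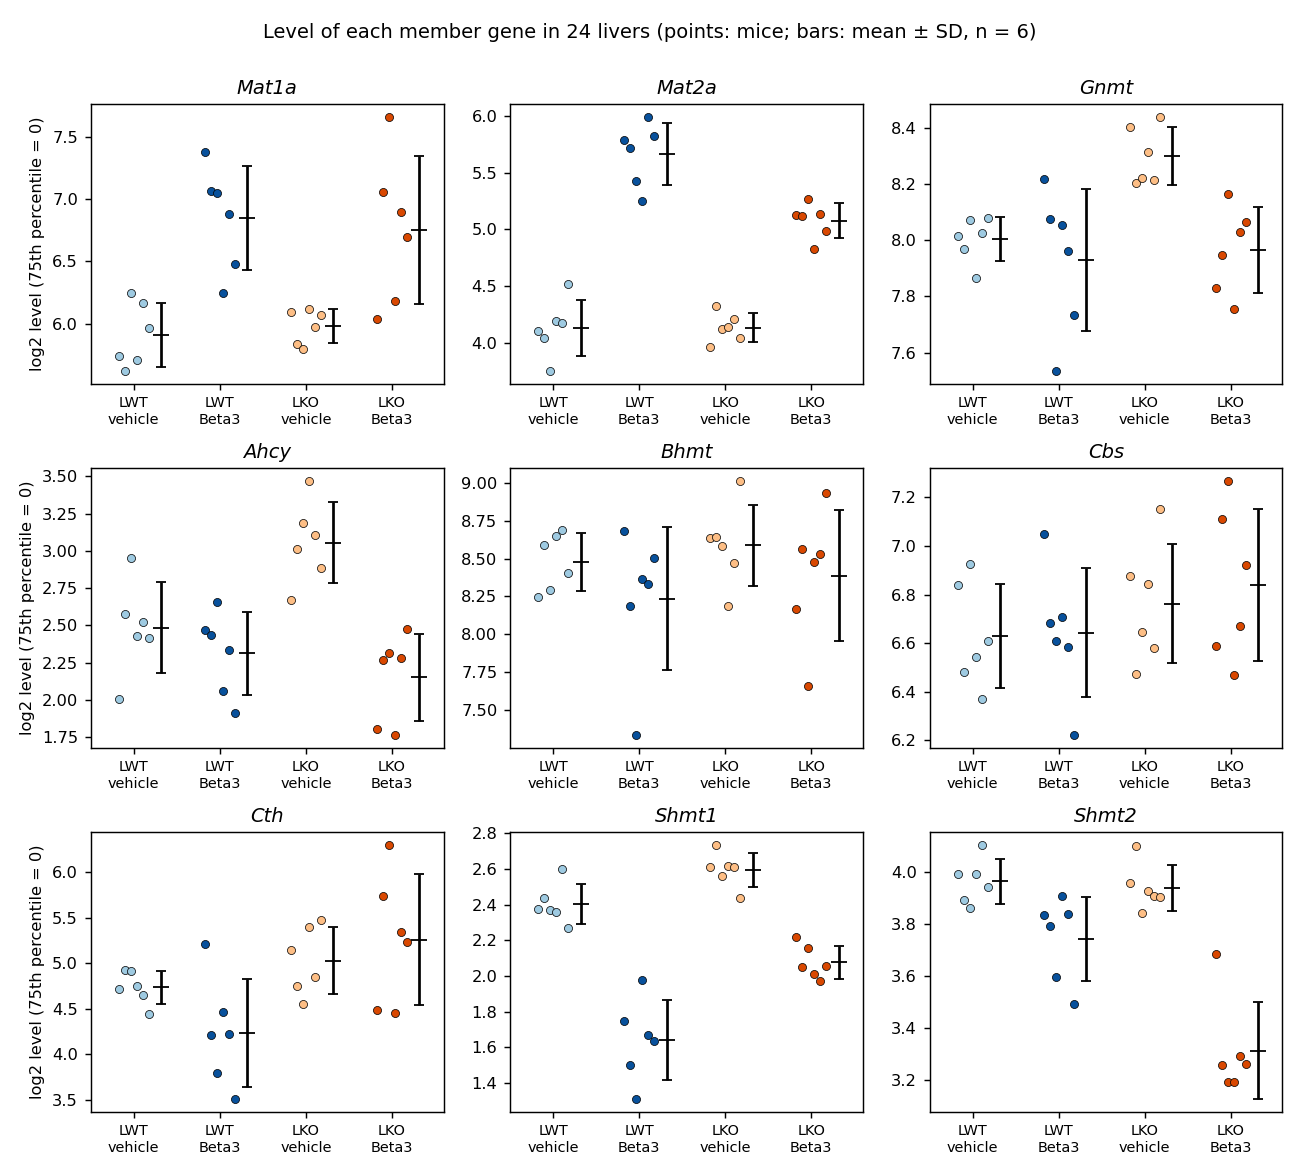
Level of each of the 9 members (y axis, log2 of intensity relative to the 75th percentile of the array, with a separate range per panel) in the 4 groups (x axis). Points are mice and bars are the mean ± SD of 6 mice; the Mat2a points of both CL316243 groups lie above all vehicle points, and those of Shmt1 lie below all vehicle points.

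The intensity at the 75th percentile ranged from 397.4 to 577.7 over the 24 arrays, and 26982 to 34195 of 56605 probes were well above background. Each of the 3 slides carried 2 mice of every group. Ppara, the gene removed from LKO hepatocytes, was lower in LKO livers without overlap of the groups: its mean level was 5.01 against 5.68 in LWT under vehicle and 4.32 against 6.23 under CL316243 (two-sided exact permutation test, p = 0.00216 in both, the smallest that 924 splits can give), and its second probe gave the same p. Limma's adjusted p for Ppara was 0.158 under vehicle and 3.60e-07 under CL316243. Of 6 hepatocyte markers, Hnf4a was called higher after CL316243 in LWT (0.30, adjusted p = 0.00936) and LKO (0.33, adjusted p = 0.00396), and Apoa1 lower in LKO (-0.25, adjusted p = 0.0307). Their summed level, carried mostly by Alb, had medians between 10.99 and 11.08 in the 4 groups. Of 5 neutrophil markers, 3 were called higher and Ly6g lower after CL316243 in LWT, and 4 higher in LKO. The rises were 1.48 in LWT and 2.30 in LKO for S100a8, 1.44 and 2.25 for S100a9, and 2.06 and 3.48 for Retnlg, and the median difference of the 5 was 1.44 in LWT and 2.25 in LKO. Their median summed level, carried mostly by Csf3r, went from 6.61 (6.53 to 6.69) to 6.82 (6.67 to 6.89) in LWT and from 6.45 (6.36 to 6.61) to 6.78 (6.62 to 7.38) in LKO. Of 5 cholangiocyte markers 1 was higher in LWT and 2 in LKO, and of 4 tested lymphocyte markers 2 were lower in LWT, and 3 lower and 1 higher in LKO. Of 5 endothelial markers 2 were higher and 1 lower in LWT, and 1 higher and 1 lower in LKO. Of 5 stellate markers 1 was higher and 1 lower in LWT, and 1 higher in LKO. Beside these counts, 38.3% of all genes were called for treatment in LWT and 40.3% in LKO. Kupffer cell and macrophage markers gave 0 limma calls of 6 in either genotype. The part of these cells in the treatment differences below was not tested.

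CL316243 raised both methionine adenosyltransferase genes and lowered Shmt1 in LWT livers; Shmt2 was also called lower, by 0.22 with an adjusted p of 0.0392, a call that several alternatives lost. Of the 9 members, 2 rose (Mat1a and Mat2a), 2 fell (Shmt1 and Shmt2) and 5 were not called, while 38.3% of all genes were called, 18.9% of all genes higher and 19.4% lower. The share of members called, 4 of 9, was thus close to that of all genes. The groups did not overlap for Mat2a and Shmt1, against 20.4% of all genes. The median difference over the 9 members was -0.17, beside 0.01 over all genes.

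In LKO livers the same treatment raised Mat1a and Mat2a and lowered 4 members, Gnmt, Ahcy, Shmt1 and Shmt2. Of all genes 40.3% were called, 20.9% higher and 19.4% lower. The groups did not overlap for 5 of the 9 members (Mat2a, Gnmt, Ahcy, Shmt1 and Shmt2), against 20.8% of all genes, and the members' median difference was -0.20, beside 0.03 over all genes. The 4 members Mat1a, Mat2a, Shmt1 and Shmt2 were called in the same direction in both genotypes, as were 24.7% of all genes. Bhmt, Cbs and Cth were called in neither.

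**Figure D2:**
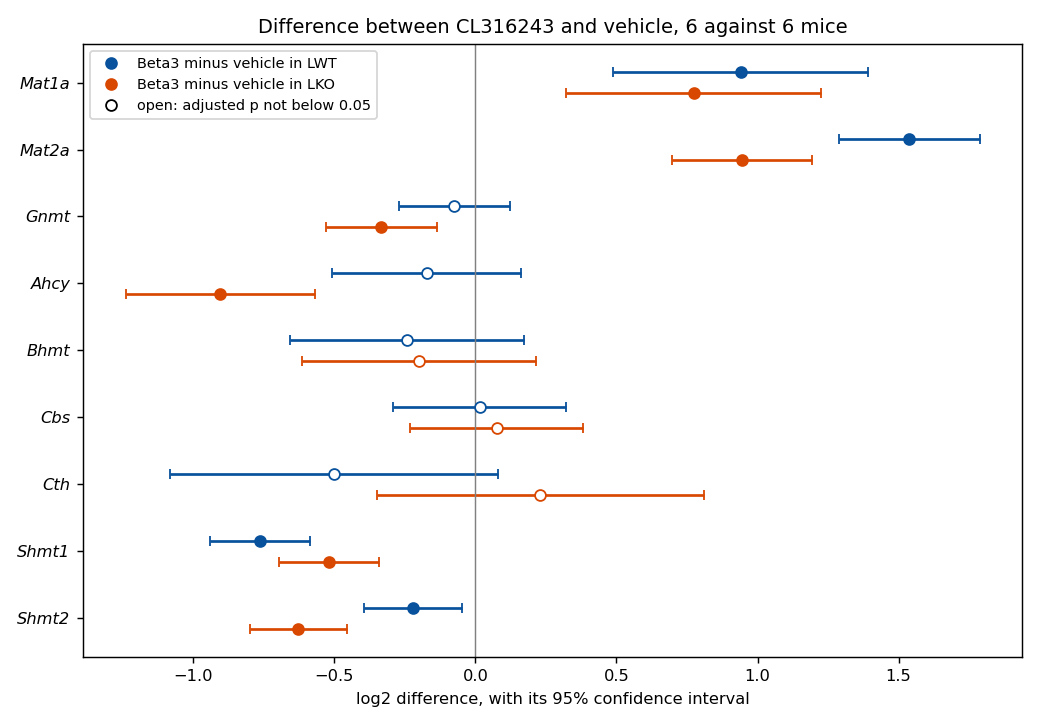
Difference in level between CL316243 and vehicle (x axis, log2) for the 9 members in LWT (blue) and LKO (orange) livers, 6 mice against 6. Bars are 95% confidence intervals and open symbols mark differences with an adjusted p of 0.05 or more; Mat2a rose by 1.54 in LWT and 0.94 in LKO, and Ahcy fell by 0.90 in LKO.

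Mat2a showed the widest separation among the members. Under vehicle its level ran from 3.75 through a median of 4.14 to 4.51 in LWT and from 3.96 through 4.13 to 4.33 in LKO. After CL316243 it ran from 5.25 through 5.75 to 5.99 in LWT and from 4.83 through 5.12 to 5.27 in LKO. All 12 treated mice lay above all 12 vehicle mice, and the treated LKO mice overlapped the treated LWT mice only at the edge of the ranges. The level rose 2.90-fold in LWT (log2 difference 1.54, SE 0.12, adjusted p = 2.19e-09) and 1.92-fold in LKO (0.94, SE 0.12, adjusted p = 3.48e-06). In order of the group means, the vehicle groups did not differ (95% interval of LKO minus LWT, -0.24 to 0.25), LKO under CL316243 stood above them and LWT under CL316243 highest.

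Mat1a, the adult liver's own subunit, rose in both genotypes with a wide spread among treated mice. Its level was 5.62 to 6.25 with a median of 5.85 in LWT under vehicle and 5.79 to 6.11 with a median of 6.02 in LKO under vehicle. After CL316243 it was 6.24 to 7.38 with a median of 6.96 in LWT and 6.04 to 7.66 with a median of 6.79 in LKO. The treated and vehicle ranges overlapped in both genotypes. In LWT, treated replicate 4 at 6.24 lay just below vehicle replicate 3 at 6.25. In LKO, treated replicate 1 at 6.04 lay below vehicle replicates 1, 4 and 6 at 6.10, 6.11 and 6.07. The rise was 0.94 (SE 0.22, adjusted p = 0.00155) in LWT and 0.77 (SE 0.22, adjusted p = 0.00686) in LKO, with 6 of 6 treated mice above the vehicle mean in each. The effects differed by -0.17 (95% interval -0.81 to 0.47, adjusted p = 0.839), which was not called. Within the 3 slides, of 2 mice a group, it was 0.25, 1.38 and 1.19 in LWT and 1.43, 0.40 and 0.49 in LKO.

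Gnmt, which consumes S-adenosylmethionine, fell after CL316243 in LKO livers and was not called in LWT livers. Its level in LKO was 8.20 to 8.44 under vehicle, with a median of 8.27, and 7.76 to 8.17 after CL316243, with a median of 7.99. In LWT it was 7.86 to 8.08 under vehicle, with a median of 8.02, and 7.53 to 8.22 after CL316243, with a median of 8.01. The LKO groups did not overlap and the LWT groups did; the LKO vehicle mice stood above all LWT vehicle mice. The difference in LKO was -0.33 (SE 0.09, adjusted p = 0.00722), and in LWT it was -0.07 (SE 0.09, adjusted p = 0.576). With quantile normalization the LWT difference was -0.19 and was called (adjusted p = 0.0387). The difference between these effects, -0.26 (95% interval -0.54 to 0.02, adjusted p = 0.318), was not called.

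Ahcy, which clears S-adenosylhomocysteine, was likewise called in LKO livers and not in LWT livers. In LKO its level was 2.67 to 3.47 under vehicle, with a median of 3.06, and 1.76 to 2.47 after CL316243, with a median of 2.27. In LWT it was 2.01 to 2.95 under vehicle, with a median of 2.47, and 1.91 to 2.66 after CL316243, with a median of 2.38. Every treated LKO mouse was below every LKO vehicle mouse, whereas the LWT groups overlapped almost fully. Ahcy fell by 0.90 in LKO (SE 0.16, adjusted p = 0.000133), to 0.534 times the vehicle level, and differed by -0.17 in LWT (SE 0.16, adjusted p = 0.433). The effects differed by -0.73 (95% interval -1.20 to -0.26), which was not called after adjustment (adjusted p = 0.0647). That difference was -0.05, -0.96 and -1.19 within the 3 slides, and it was called with array weights (-0.74, adjusted p = 0.0200) and without any one of replicate 3 of LWT vehicle, replicate 6 of LWT CL316243, replicate 1 of LKO vehicle and replicate 6 of LKO CL316243 (adjusted p = 0.0324 to 0.0459).

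Shmt1, the cytosolic serine hydroxymethyltransferase, fell in both genotypes. Its level went from 2.27 to 2.60 under vehicle (median 2.37) to 1.31 to 1.98 after CL316243 (median 1.65) in LWT. In LKO it went from 2.44 to 2.73 (median 2.61) to 1.97 to 2.22 (median 2.05). All treated mice lay below all vehicle mice, and the treated LWT mice were the lowest group. The fall was 0.76 in LWT (SE 0.09, adjusted p = 4.65e-07) and 0.52 in LKO (SE 0.09, adjusted p = 5.87e-05). The effects differed by 0.24 (95% interval -0.01 to 0.49, adjusted p = 0.291), which was not called.

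Shmt2, the mitochondrial enzyme, fell more in LKO than in LWT. Its vehicle levels were 3.86 to 4.10 in LWT (median 3.97) and 3.84 to 4.10 in LKO (median 3.92). After CL316243 they were 3.49 to 3.91 in LWT (median 3.81) and 3.19 to 3.68 in LKO (median 3.26). The LWT groups overlapped and the LKO groups did not, and 1 treated LKO mouse, replicate 1, stood at 3.68, apart from the other 5 at 3.19 to 3.29. The fall was 0.22 in LWT (SE 0.08, adjusted p = 0.0392) and 0.63 in LKO (SE 0.08, adjusted p = 5.84e-06). The call in LWT was lost without LWT vehicle replicate 1, 4, 5 or 6 or LWT CL316243 replicate 3 or 6 (adjusted p = 0.0532 to 0.106), with no filter on dim probes (-0.22, adjusted p = 0.0905) and with the mean of both probes in place of the brighter one, where the difference was -0.08 (adjusted p = 0.608).

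Bhmt, the betaine-dependent enzyme, was not called in any comparison. Its mean level was 8.48 ± 0.19 (SD, n = 6) in LWT under vehicle, 8.23 ± 0.47 in LWT after CL316243, 8.59 ± 0.27 in LKO under vehicle and 8.39 ± 0.43 in LKO after CL316243. The intervals of the treatment difference, -0.66 to 0.17 in LWT and -0.62 to 0.21 in LKO, both included 0. Cbs, the first enzyme of transsulfuration, had mean levels of 6.63 ± 0.21, 6.64 ± 0.27, 6.76 ± 0.25 and 6.84 ± 0.31 in the same order of groups. All neighbouring Cbs groups overlapped, and the treatment difference was 0.02 (95% interval -0.29 to 0.32) in LWT and 0.08 (-0.23 to 0.38) in LKO.

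Cth, which completes the step to cysteine, had the widest spread within groups of the 9 members. Its level was 4.44 to 4.93 in LWT under vehicle (median 4.73) and 3.51 to 5.21 in LWT after CL316243 (median 4.21). In LKO it was 4.55 to 5.48 under vehicle (median 5.0) and 4.45 to 6.30 after CL316243 (median 5.29). All groups overlapped, and the treated groups were the widest. The treatment difference was -0.50 in LWT (SE 0.28, adjusted p = 0.169) and 0.23 in LKO (SE 0.28, adjusted p = 0.540), neither called, and without LWT CL316243 replicate 1 it was -0.70 in LWT and called (adjusted p = 0.0458). The pooled SD within groups was 0.51 for Cth, at percentile 87.0 of all genes, and 0.14 for Shmt2, at percentile 21.0, beside a median of 0.23 over all genes.

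The genotype by treatment interaction, the LKO effect minus the LWT effect, asks whether the response to CL316243 depends on hepatocyte PPARα. It was called for 2 of 9 members, Mat2a and Shmt2, both negative, while 5.41% of all genes were called, 2.17% of all genes with a positive and 3.24% with a negative difference. For Mat2a the rise was smaller by 0.59 in LKO than in LWT (95% interval of the difference -0.95 to -0.24, adjusted p = 0.0418). For Shmt2 the fall was larger by that difference of -0.41 (95% interval -0.65 to -0.16, adjusted p = 0.0446). Within the 3 slides the values were -0.29, -0.59 and -0.90 for Mat2a and -0.44, -0.31 and -0.46 for Shmt2.

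Both interaction calls lie close to the threshold. With no filter on dim probes both were lost (adjusted p = 0.0977 for Mat2a and 0.119 for Shmt2); that of Mat2a was also lost with slide as a block (0.0537) or slide and row as terms (0.0584), and that of Shmt2 after subtracting the median of the kept probes (0.0543). That of Mat2a was lost on leaving out 18 of the 24 mice in turn (adjusted p up to 0.0767); it was kept without LWT vehicle replicate 6, LWT CL316243 replicate 3 or 4, replicate 1 or 6 of LKO vehicle, or replicate 3 of LKO CL316243. That of Shmt2 was lost in 19 of 24 cases (adjusted p up to 0.0801) and kept without LWT vehicle replicate 5, LWT CL316243 replicate 3 or 6, replicate 3 of LKO vehicle, or replicate 1 of LKO CL316243. The differences themselves ranged from -0.68 to -0.52 for Mat2a and from -0.48 to -0.37 for Shmt2 over these 24 fits.

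Under vehicle, the comparison of genotypes asks what the loss of hepatocyte PPARα alone does to these genes. None of the 9 members was called with limma (3 had an unadjusted p under 0.05), and 1.18% of all genes were. Gnmt was higher in LKO by 0.29 with no overlap between the groups, which held for 1.8% of all genes, but its adjusted p was 0.206. Ahcy differed by 0.57 (95% interval 0.24 to 0.91, adjusted p = 0.109) and Shmt1 by 0.19 (95% interval 0.02 to 0.37, adjusted p = 0.541), with 6 of 6 LKO mice above the LWT mean for each of these 3 genes. The Gnmt difference was called with quantile normalization (0.31, adjusted p = 0.0280) and in 4 other alternatives (adjusted p = 0.0242 to 0.0403), and the Ahcy difference without LWT vehicle replicate 3 (0.66, adjusted p = 0.0366) and with array weights (0.63, adjusted p = 0.00857).

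After CL316243, the genotypes differed in 4 of 9 members, of which LKO was higher for 2 and lower for 2, while 15.9% of all genes were called, 7.74% higher and 8.17% lower. Mat2a was lower in LKO by 0.59 (SE 0.12, adjusted p = 0.00126) and Shmt2 by 0.43 (SE 0.08, adjusted p = 0.000727), with log2 differences of -0.59 and -0.43. Shmt1 was higher by 0.44 (SE 0.09, adjusted p = 0.000832) and Cth by 1.03 (SE 0.28, adjusted p = 0.0134). In each of the 4, 6 of 6 LKO mice lay on that side of the LWT mean, yet the ranges of the groups overlapped for all 4, whereas 6.57% of all genes had groups without overlap. The Cth difference was 2.03, 0.86 and 0.18 within the 3 slides and was not called in a fit of these 2 groups alone (adjusted p = 0.0863). This comparison shares its mice with the treatment comparisons above.

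**Figure D3:**
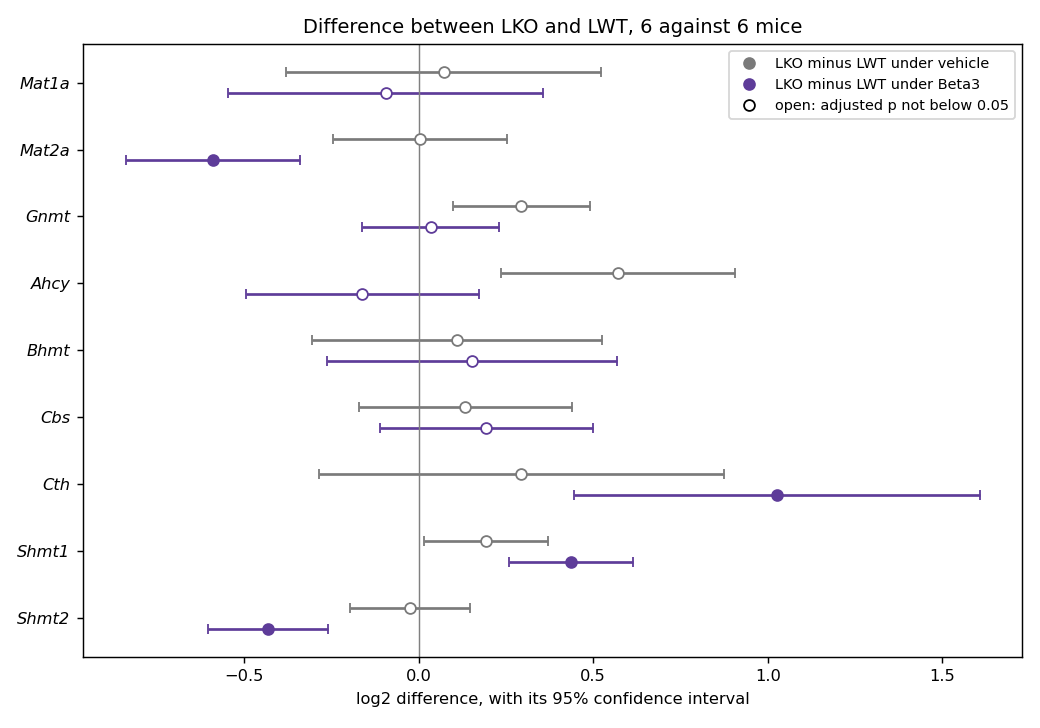
Difference in level between LKO and LWT livers (x axis, log2) for the 9 members under vehicle (grey) and after CL316243 (purple), 6 mice against 6. Bars are 95% confidence intervals and open symbols mark an adjusted p of 0.05 or more; under vehicle all 9 symbols are open, and after CL316243 Mat2a and Shmt2 lie below 0 and Shmt1 and Cth above it.

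For the 4 genes with several probes, the probes were also fitted one by one among all 32035 kept probes, of which 37.6% were called for treatment in LWT, 41% in LKO, 5.96% for the interaction and 1.11% between the genotypes under vehicle. The second Mat2a probe of the same transcript, starting at base 1737 rather than 2681, gave a rise of 1.49 in LWT and 0.90 in LKO and an interaction of -0.59 (adjusted p = 0.0469). The third Mat2a probe was designed on a clone sequence and lies at chr6:72388801-72388860 (mm9), apart from the other probes at chr6:72382856-72382915 and chr6:72383800-72383859. It rose by 0.86 in LWT (adjusted p = 5.67e-05), differed by 0.07 in LKO (adjusted p = 0.707) and gave an interaction of -0.78 (adjusted p = 0.0203). Its mean level was -1.80, beside 4.75 for the probe from base 2681 and 4.52 for that from base 1737. All 3 probes, read on the same arrays, gave a larger difference in LWT than in LKO.

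The second Shmt1 probe, from base 394 of the transcript, fell in both genotypes, by 0.73 in LWT and 0.93 in LKO. Its order of the effects was the reverse of that of the brighter probe, with an uncalled interaction of -0.20 (adjusted p = 0.423), and it was higher in LKO than in LWT under vehicle by 0.40 (adjusted p = 0.0217). The second Shmt2 probe, from base 48 of another transcript, was well above background on 23 of 24 arrays. It differed by 0.07 in LWT (adjusted p = 0.793) and fell by 0.90 in LKO (adjusted p = 0.000309), with an interaction of -0.97 (adjusted p = 0.0204).

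The other Bhmt probes gave more negative differences with larger errors, and none was called. From base 1426 the difference was -0.54 in LWT and -0.60 in LKO (SE 0.34), and from base 642 it was -1.36 and -1.37 (SE 0.58, adjusted p = 0.0694 and 0.0647). The annotation gives the former only 5 bases of genome, and the latter, on an Ensembl transcript, was well above background on 22 of 24 arrays.

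**Figure D4:**
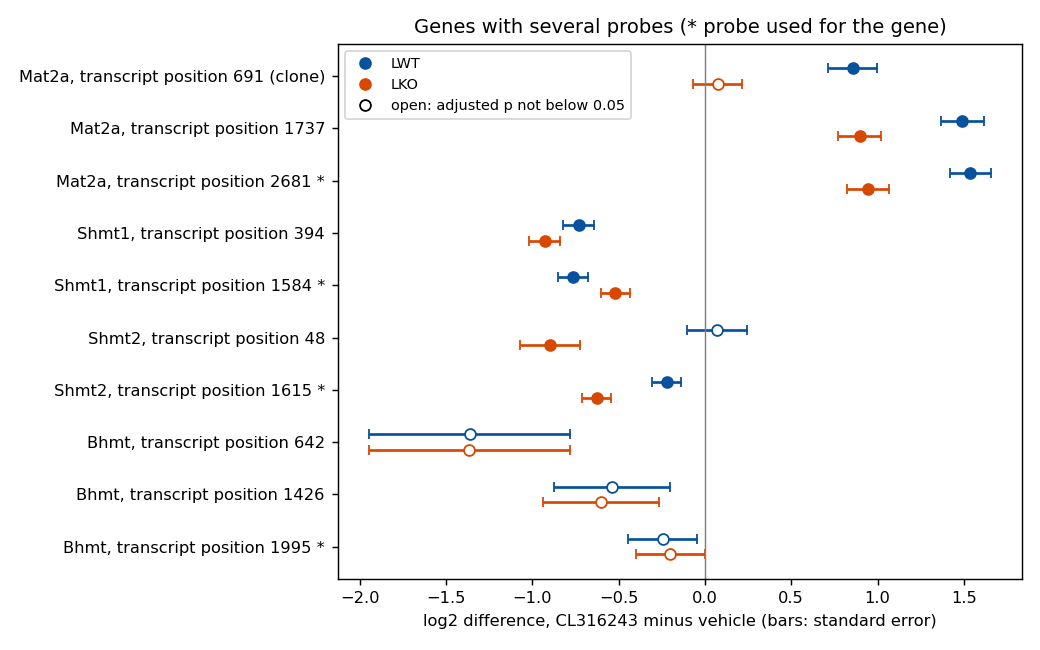
Difference between CL316243 and vehicle (x axis, log2, bars are standard errors) for each probe of the 4 genes with several probes (y axis, by start in the probe's own transcript; an asterisk marks the probe used for the gene). Open symbols mark an adjusted p of 0.05 or more over 32035 probes; the 3 Mat2a probes all gave a larger difference in LWT (blue) than in LKO (orange).

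The wider pathway was read from 6 lists of 79 genes, of which 77 were tested; Amd1 was not found on the array by that name and Slc7a11 did not pass the filter. After CL316243, 38 of the 77 were called in LWT, 11 higher and 27 lower, and 46 in LKO, 12 higher and 34 lower, which is 49.4% and 59.7% beside 38.3% and 40.3% of all genes. The median differences were -0.16 and -0.25, beside 0.01 and 0.03 over all genes. The lists were chosen with results of these data known, and the counts are a description.

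Among 20 genes of the folate cycle, 9 were called in LWT (4 higher, 5 lower) and 11 in LKO (3 higher, 8 lower). These calls are 45% and 55% of the list, beside 38.3% and 40.3% of all genes. Fpgs, which adds the glutamate tail that keeps folates in the cell, rose by 0.88 in LWT and fell by 0.40 in LKO, with an interaction of -1.28 (adjusted p = 0.000141). Mthfd1, the cytosolic enzyme that interconverts folate units, fell by 1.06 in LWT and 0.94 in LKO. Its mitochondrial counterpart Mthfd2 rose by 2.42 in LKO (SE 0.45, adjusted p = 0.000190), from -3.37 to -2.38 under vehicle to -2.41 to 0.86 after treatment. In LWT it differed by 1.03, which was not called (adjusted p = 0.0724, 6 of 6 mice above the vehicle mean), and the interaction of 1.38 was not called either (adjusted p = 0.244). After CL316243 it was higher in LKO than in LWT by 1.71 (adjusted p = 0.00994).

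Of the 10 genes of betaine use and remethylation, 1 rose and 6 fell in LWT, and none rose and 6 fell in LKO. The shares called, 70% and 60%, stand beside 38.3% and 40.3% of all genes. Bhmt2, which methylates homocysteine from S-methylmethionine, fell by 0.98 in LWT and 0.83 in LKO without overlap in either genotype. Aldh7a1, which can make betaine from its aldehyde, fell by 0.78 and 1.03. Mtr, the folate-dependent methionine synthase, fell by 0.37 and 0.34. Mtrr, the reductase that keeps Mtr active, rose by 0.24 in LWT (adjusted p = 0.0207) and after CL316243 was lower in LKO than in LWT, with a log2 difference of -0.25 (adjusted p = 0.0330).

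Of 13 genes of methylation reactions, 2 rose and 2 fell in LWT, and 1 rose and 4 fell in LKO. The shares called were 30.8% in LWT and 38.5% in LKO, beside 38.3% and 40.3% of all genes. Nnmt, which methylates nicotinamide with S-adenosylmethionine, rose by 1.51 in LWT (SE 0.35, adjusted p = 0.00141) and 1.61 in LKO (SE 0.35, adjusted p = 0.000810). Hnmt, the histamine methyltransferase, fell by 0.47 in LWT and 0.46 in LKO, and Inmt, an indolethylamine methyltransferase, by 0.58 in LKO. None of the 13 was called for the interaction.

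Of 10 tested genes of cysteine and sulfide metabolism, none rose and 5 fell in LWT, and 1 rose and 4 fell in LKO. The called share was 50% in both genotypes, beside 38.3% and 40.3% of all genes. Ethe1, the mitochondrial persulfide dioxygenase, fell by 0.81 in LWT and 1.09 in LKO. Gclc, the catalytic subunit of the enzyme that limits glutathione synthesis, had levels of 4.04 to 4.97 under vehicle and 5.0 to 6.31 after CL316243 in LKO, and 4.19 to 4.99 and 3.88 to 5.12 in LWT. It rose by 1.1 in LKO (adjusted p = 0.000276), differed by -0.27 in LWT, and had an interaction of 1.38 (adjusted p = 0.00693). Csad, of taurine synthesis, was the 1 gene of the 77 called under vehicle, at 0.63 higher in LKO (adjusted p = 0.0290). Mpst, a sulfurtransferase, was lower in LKO after CL316243, with a log2 difference of -0.56 (adjusted p = 0.0417).

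Of 13 genes of serine and glycine metabolism, 2 rose and 4 fell in LWT, and 5 rose and 5 fell in LKO. Called were 46.2% in LWT and 76.9% in LKO, beside 38.3% and 40.3% of all genes. The rises in LKO included Phgdh, Psat1 and Psph, the 3 enzymes of serine synthesis. Psat1 rose by 2.45 in LWT (SE 0.64, adjusted p = 0.00417) and 3.73 in LKO (SE 0.64, adjusted p = 8.93e-05). Its vehicle levels were low and scattered, from -2.97 to 0.00 in LWT and from -5.22 to -2.60 in LKO, where 5 of 6 arrays were well above background. Phgdh rose by 1.82 (adjusted p = 0.0141) and Psph by 0.74 (adjusted p = 0.00989) in LKO. In LWT Phgdh differed by -0.16 (adjusted p = 0.855) and Psph by -0.09 (adjusted p = 0.783). Phgdh was dim, with a mean level of -3.01 in LKO under vehicle, and its difference had an SE of 0.57. Amt, of the glycine cleavage system, fell by 0.83 in LWT and 1.03 in LKO. None of the 13 was called for the interaction.

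Of 11 tested genes of polyamines and methionine salvage, 2 rose and 5 fell in LWT, and 2 rose and 7 fell in LKO. That is 63.6% and 81.8% called, beside 38.3% and 40.3% of all genes. Sat1, which acetylates spermidine and spermine for breakdown or export, had levels of 2.54 to 3.10 under vehicle and 3.33 to 4.47 after CL316243 in LWT, and 2.54 to 3.08 and 4.91 to 6.98 in LKO. It rose by 1.15 in LWT (adjusted p = 0.00170) and 2.85 in LKO (adjusted p = 1.20e-07), with an interaction of 1.69 (adjusted p = 0.00890). Mtap, which starts the salvage of methionine from methylthioadenosine, fell by 1.34 in LKO (adjusted p = 6.40e-06) and differed by -0.13 in LWT, with an interaction of -1.21 (adjusted p = 0.00505). Paox, an oxidase of acetylated polyamines, fell by 0.86 in LWT and 1.03 in LKO, and Smox, the spermine oxidase, rose by 1.06 in LWT and 0.35 in LKO, with an interaction of -0.70 (adjusted p = 0.0110).

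Over the 77 genes the interaction was called for 6, 4 negative, among them Fpgs, Smox and Mtap, and 2 positive, Gclc and Sat1, which is 7.79% beside 5.41% of all genes. After CL316243, 17 of 77 (22.1%) were called between the genotypes, with LKO higher for 6 and lower for 11, beside 15.9% of all genes. Of these 17, 7 belonged to the folate list, of which 6 were lower, and 6 to the cysteine and sulfide list, of which 4 were higher.

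**Figure D5:**
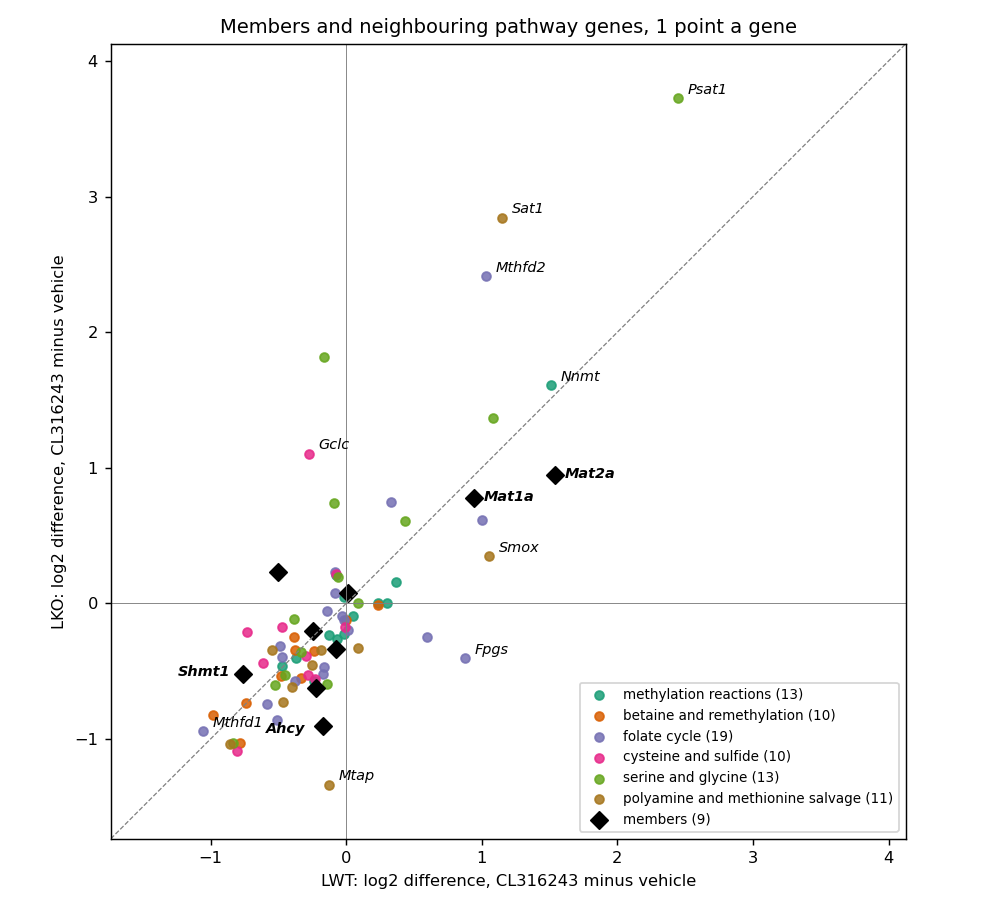
Difference between CL316243 and vehicle in LWT (x axis, log2) and in LKO (y axis, log2) for genes of the 6 lists (circles, coloured by list; 1 of the 77 tested is not drawn) and the 9 members (black diamonds). The dashed line marks equal differences; Mat2a lies below it on the right, and Sat1 and Gclc lie above it.

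For each member called in any comparison, the 2 genes nearest in pattern were found by the root mean square difference of mean-centred log2 levels over the 24 arrays. Mat2a was nearest to Tmem82 (0.20) and Picalm (0.20), beside an SD of its own of 0.70. Mat1a was nearest to Gde1 and Ckmt1 (0.18 each, own SD 0.57), and Shmt1 to Prosc, now named Plpbp, and Cyp2r1 (0.14 each, own SD 0.39). Ahcy was nearest to Cyp2a22 (0.17) and Cyp27a1 (0.19, own SD 0.44). Picked for their likeness to Ahcy on these same arrays, they fell by 0.92 and 0.65 in LKO. In LWT they differed by -0.13 and 0.03.

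Shmt2 was nearest to Polr2b (0.12) and Ccs (0.14, own SD 0.30). Gnmt was nearest to Mtch1 (0.12) and Gchfr (0.13) beside its own SD of 0.21. Unlike Gnmt, both were called lower in both genotypes. Mtch1 differed by -0.16 in LWT and -0.20 in LKO, and Gchfr by -0.20 and -0.24. Cth was nearest to Gstt3 and Slc7a2 (0.34 each, own SD 0.61). Among the members themselves the smallest distance was between Gnmt and Cbs (0.23) and the largest between Mat2a and Shmt1 (1.04), which moved in opposite directions. Mat1a and Mat2a lay 0.45 apart.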

How the data were processed

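Liver RNA of 24 mice was measured on single-colour (Cy3) arrays, 1 per mouse, grouped by the genotype and treatment in the labels. Per the file headers, the deposited scanner intensities come from Agilent's Feature Extraction software, version 10.10.1.1, and the processed ones are linear and background-subtracted. The series table holds log2 values deposited by the authors, within 0.01 of the quantile-normalized log2 median signal for 99.3% of values over 31367 probes; limma is named in the submitters' processing notes. That table was used as an alternative only.

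Here, spots marked as outliers were removed, log2 of the processed intensity was averaged per probe, and the 75th percentile over each array's 59305 non-control spots was subtracted. A first version took this percentile over the 56605 averaged probes; it was replaced after its counts had been seen and is kept as an alternative chosen after seeing the data. Probes were kept if at least 4 of the 6 arrays in some group had them well above background, with at least 3 values in each group (32035), and the brightest represented its gene (21331). With limma 3.58.1 in R 4.3.3, 1 mean per group was fitted to all arrays with empirical Bayes moderation, Benjamini-Hochberg adjustment within each comparison and a threshold of 0.05; the code was tested on simulated data. Array number limits the precision. No value of the 9 member genes was missing. All 9 symbols matched RefSeq's table (GRCm38.p6, names and upstream stretches only); probe positions are the array's own (mm9). The labels number the mice within groups but name no litter or day.

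Members and lists were chosen with earlier results of these data known. The text names the 9 members, Ppara, the called gene with the largest rise and fall per list and comparison, and the 2 nearest genes in pattern, except 1 gene that is not reported here; Mtr, Fpgs, Smox, Phgdh and Psph and the neutrophil marker Ly6g were named after their values were seen. The motifs were chosen after the expression values were known. Alternatives were normalization, background correction, filters, the deposited log2 values, slide, row, replicate number, groups in the fit, probe choice, array weights and each mouse left out.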

Additional observations from a re-analysis of the deposited data

Results flagged for a closer look

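Of 36 groups of 6 mice examined for the 9 members, 2 held 1 mouse apart from the other 5; by chance about 1 in 20 groups does. For Bhmt, LWT CL316243 replicate 3 had a level of 7.33, and the next lowest of that group had 8.19. For Shmt2, LKO CL316243 replicate 1 had a level of 3.68, and the next highest had 3.29. Without that mouse the fall of Shmt2 in LKO was 0.70 and the interaction -0.48 (adjusted p = 0.00470). The effect of CL316243 was called different between genotypes for Mat2a (-0.59) and Shmt2 (-0.41), by the interaction term of the limma fit. Both calls lie close to the threshold. Leaving out 1 mouse lost that of Mat2a in 18 of 24 fits and that of Shmt2 in 19 of 24.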

How the results depend on the processing

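Over 13 alternatives of processing and the 24 fits without 1 mouse, no member difference that was called before or after the change turned its direction; the 3 slides taken singly, with 2 mice a group, are not among these. The treatment calls of Mat1a, Mat2a and Shmt1 in both genotypes and of Gnmt, Ahcy and Shmt2 in LKO held in all of these fits, with Mat2a between 1.29 and 1.64 in LWT and 0.64 and 0.99 in LKO. The number of members with a called interaction went from 2 to 1 after subtracting the median of the kept probes. It was also 1 with slide as a block and with slide and row as terms, and 0 with no filter on dim probes. With the replicate block and with array weights, Ahcy was called in addition to Mat2a and Shmt2 (adjusted p for Ahcy = 0.0418 and 0.0200). The number called between genotypes under vehicle went from 0 to 1 with quantile normalization, normexp, the series table's values and the fit of 2 groups, and to 2 with array weights. The pathway genes called under vehicle went from 1 to 3 with normexp, to 2 with the series table and array weights, and to 0 with no filter, slide and row, the replicate block and the fit of 2 groups. Over all genes the interaction was called for 664 with no filter and 2311 with array weights, the vehicle comparison for 167 and 681, and the genotype comparison after CL316243 for 2203 in the fit of 2 groups. The causes of these changes in the counts were not tested.

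Leaving out 1 mouse gave 0 to 2 members with a called interaction, 0 to 1 members called under vehicle, 3 to 5 members called for treatment in LWT, 0 to 1 pathway genes called under vehicle, and 6 to 8 with a called interaction. Gnmt was called lower in LWT with quantile normalization (-0.19, adjusted p = 0.0387).

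Mice share replicate numbers across groups, but the correlation of same-numbered deviations was above 0.1 in 11 of 36 pairs (range -0.18 to 0.42), and its median was 0.05, beside -0.01 for pairs of other numbers. Of 24 arrays, 10 correlated best with their own number, a hint of pairing from the data and not from the design; the labels name nothing that the numbers share. With the replicate block, the interaction of Ahcy (-0.73) was called (adjusted p = 0.0418), as it was with array weights (-0.74, adjusted p = 0.0200). Dim probes such as those of Psat1 and the second Shmt2 probe limit what their differences show.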
